A study of Mus musculus with 10 samples.

Results

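The synaptonemal complex components are the proteins of the zipper that joins paired chromosomes in meiotic prophase, and 8 genes were listed by symbol: Sycp1, Sycp2, Sycp2l, Sycp3, Syce1, Syce2, Syce3 and Tex12. Of 23420 gene rows, 7 carried a listed symbol, and all 7 passed the filter on low counts that left 15265 genes. Sycp2l, a relative of Sycp2 best known from mouse oocytes, was not analysed here. Transcript levels were measured by sequencing polyA RNA of spermatogenic cells from testes of mixed-background mice at postnatal day 18. There were 5 libraries labelled Ino80cKO, with a testis-specific deletion of the chromatin remodeller Ino80 by Stra8-Cre, and 5 labelled Ino80WT. The series title concerns INO80 and a polycomb subunit in the setting up of poised chromatin in spermatocytes. Stra8-Cre is expressed in male germ cells and not in the supporting cells of the testis. The sources used here do not give the Cre status or alleles of Ino80WT mice. Nothing in the labels ties the 5 libraries of a group to different mice, and the p-values are about variation among libraries, part of which could be technical.

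In mammals the synaptonemal complex forms in layers. SYCP2 and SYCP3 coat the chromosome axes and become the lateral elements, SYCP1 spans the gap between them as the transverse filament, and SYCE1, SYCE2, SYCE3, TEX12 and SIX6OS1 build the central element where filaments from both sides meet. SYCE2 and TEX12 assemble with each other into fibres, and SYCE3 recruits further central element proteins to SYCP1. Lateral elements appear first, and the central region is filled in during zygotene and is complete in pachytene, the stage that the first wave of mouse spermatocytes reaches around the age studied here.

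Stretches before the transcription starts of 6 members, taken from RefSeq on GRCm38.p6 (the mm10 build) and cut where a GENCODE M21 transcript of the gene begins, are given here because the members differ in the motifs they hold. Capitals mark the E-box CACGTG, which is its own reverse complement, and the E2F site TTCCCGC or its reverse complement GCGGGAA. Both are bound by factors of a germline-gene polycomb complex in mouse embryonic stem cells (MGA with MAX, and E2F6).
Sycp2 (chr2:178407686-178407908, minus strand): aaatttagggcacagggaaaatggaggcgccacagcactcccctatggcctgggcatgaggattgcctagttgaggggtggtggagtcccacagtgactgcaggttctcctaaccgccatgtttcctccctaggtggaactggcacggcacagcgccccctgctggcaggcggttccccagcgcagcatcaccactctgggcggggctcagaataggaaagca
Sycp3 (chr10:88459337-88459568, plus strand): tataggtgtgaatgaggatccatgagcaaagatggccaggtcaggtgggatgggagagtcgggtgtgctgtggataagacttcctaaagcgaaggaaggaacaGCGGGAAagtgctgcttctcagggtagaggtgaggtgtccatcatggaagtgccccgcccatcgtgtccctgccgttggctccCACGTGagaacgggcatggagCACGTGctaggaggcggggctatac
Sycp1 (chr3:102936101-102936350, minus strand): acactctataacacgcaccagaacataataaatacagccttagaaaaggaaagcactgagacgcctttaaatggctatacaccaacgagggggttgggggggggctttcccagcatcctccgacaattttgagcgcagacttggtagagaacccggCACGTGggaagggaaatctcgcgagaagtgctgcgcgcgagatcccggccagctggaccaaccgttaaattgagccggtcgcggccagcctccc
Syce1 (chr7:140787855-140788104, minus strand): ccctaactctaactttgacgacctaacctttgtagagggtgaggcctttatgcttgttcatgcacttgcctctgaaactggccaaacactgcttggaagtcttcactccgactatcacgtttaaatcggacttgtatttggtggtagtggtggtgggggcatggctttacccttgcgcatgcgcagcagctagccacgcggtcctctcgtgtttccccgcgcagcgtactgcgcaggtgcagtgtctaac
Syce3 (chr15:89410504-89410753, minus strand): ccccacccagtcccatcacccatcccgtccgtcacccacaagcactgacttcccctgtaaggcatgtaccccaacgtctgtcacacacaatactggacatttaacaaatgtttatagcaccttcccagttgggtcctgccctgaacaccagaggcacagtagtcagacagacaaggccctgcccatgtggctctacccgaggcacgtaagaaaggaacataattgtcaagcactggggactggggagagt
Tex12 (chr9:50561326-50561518, minus strand): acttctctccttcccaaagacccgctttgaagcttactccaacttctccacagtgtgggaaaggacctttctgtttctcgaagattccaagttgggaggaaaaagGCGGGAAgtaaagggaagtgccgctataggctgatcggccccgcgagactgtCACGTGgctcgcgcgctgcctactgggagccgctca
Within the 250 bases before a RefSeq start, Sycp1 held 1 E-box, Sycp3 held 2 E-boxes and 1 E2F site, and Tex12 held 1 of each. Syce2, which has 2 annotated starts, held 1 E-box and 1 E2F site before the second of them, both within the 147 bases of that window that lie after the first start, and neither before the first. Sycp2, Syce1 and Syce3 held neither. Of 32851 promoter windows of the same length in the table, 6.02% held the E-box and 3.82% the E2F site. These shares are per window, whereas members are counted per gene over any start. Counted per gene, 1078 of 11202 tested genes with a promoter held the E-box and 895 the E2F site. The CRE (TGACGTCA) was in no window of the 7 members, against 1.55% of all windows, and the STRA8 motif CNCCTCAG (or CTGAGGNG) was in 1, that before the second Syce2 start, against 6.42%. The MYB core AACNG (or CNGTT) was in every member window and in 74.2% of all windows, and the RFX motif GTTGCC (or GGCAAC) only before the second Syce3 start, against 10.4%. A match of letters is not a measured binding site.

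The gene-level count of Ino80 was 94.5, 94.7, 96.9, 97.5 and 96.7 CPM in Ino80cKO libraries 1 to 5, against 75.8, 101, 110.1, 93.1 and 94.8 CPM in Ino80WT (log2 0.02 ± 0.09, adjusted p = 0.889 by edgeR). The sources used here do not name the deleted exons, and reads from the rest of the gene are still counted, so these values do not check the labels. Counts assigned to genes ran from 16750609 to 23700094 per library, so a floor of 3 counts is 0.118 to 0.189 CPM, which covers counting error only. The lowest member count was 302 (Syce3, Ino80cKO library 3).

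With libraries scaled by TMM factors, 6 of 7 synaptonemal complex transcripts were lower in libraries labelled Ino80cKO, by unequal amounts, while scaling to pachytene genes made 5 of the 7 higher along with 90.7% of all genes. With library totals 5 of the 7 were lower, as were 2937 of all 15265 genes. Of the 7 members, 6 passed as lower (Syce1, Syce3, Sycp2, Tex12, Sycp1 and Sycp3), none as higher, and Syce2 did not pass. Among all 15265 genes tested 45.9% were called, 27.6% as lower and 18.3% as higher. Syce1 was the 1 member called lower by at least 2-fold, against 7.72% of all genes. The median log2 fold change was -0.57 over the members and 0.02 over all genes tested, with single members between -1.10 (Syce1) and -0.18 (Syce2). Levels are CPM, counts relative to library size after scaling by TMM factors. Fold changes are Ino80cKO over Ino80WT with their SE, and p-values come from the quasi-likelihood test of edgeR, adjusted over all genes by Benjamini-Hochberg and called below 0.05, n = 5 libraries per group. No member had an unadjusted p below 0.05 with a rise, and DESeq2 and limma-voom also called 6 lower and 0 higher. Over all genes, DESeq2 called 4104 of 17074 lower and 3549 higher, and limma-voom 4151 of 15265 lower and 2848 higher. The groups did not overlap in CPM, with every Ino80cKO library lower, for 4 members (Sycp2, Syce1, Syce3 and Tex12), against 22.0% of all genes. For none did every Ino80cKO library lie higher, against 9.96% of all genes. In bulk RNA, fewer cells that carry a transcript and less of it per cell cannot be told apart.

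**Figure D1:**
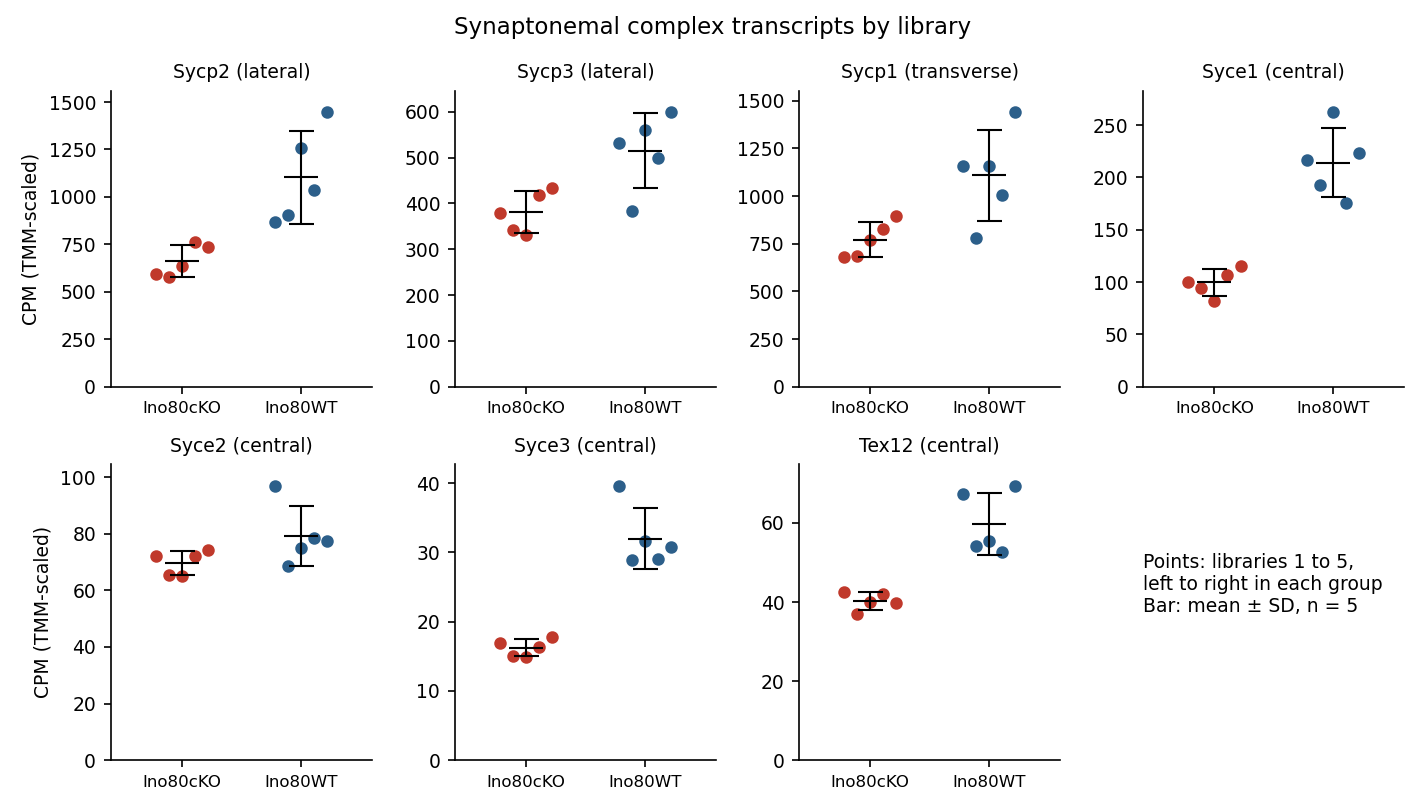
TMM-scaled CPM (vertical axis, linear from 0) of the 7 measured members in each library, with libraries 1 to 5 from left to right in each group, and the mean ± SD (n = 5). Every Ino80cKO library lies below every Ino80WT library for Sycp2, Syce1, Syce3 and Tex12, and the groups overlap for Sycp1, Sycp3 and Syce2.

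Both lateral element genes fell on the TMM scale. Sycp2 (GRCm38, chromosome 2, 178345293 to 178407685, minus strand), a large axis protein that binds SYCP3, was at 595.8, 579, 634, 765 and 736 CPM in Ino80cKO libraries 1 to 5, against 869.7, 903, 1259, 1037 and 1445 CPM in Ino80WT libraries 1 to 5. The groups did not overlap, and Ino80WT libraries 3 and 5 stood highest. Sycp2 averaged 662 ± 83.7 CPM in Ino80cKO and 1103 ± 245 CPM in Ino80WT (SD), a 1.67-fold lower level (log2 -0.74 ± 0.14, adjusted p = 0.00143). Sycp3 (chromosome 10, 88459569 to 88473236, plus strand), which forms the fibres of the axis and is the usual marker of it in chromosome spreads, was at 379, 343, 331, 419 and 434 CPM in Ino80cKO libraries 1 to 5, against 532, 384, 559.5, 499.6 and 598.5 CPM in Ino80WT. Ino80WT library 2 lay within the range of Ino80cKO, and the other Ino80WT libraries lay above it. The log2 fold change of Sycp3 was -0.43 ± 0.12 (1.35-fold lower, adjusted p = 0.0109), and it no longer passed with library totals as the scaling (-0.26, adjusted p = 0.0784) or without library 3 of both groups (-0.33, adjusted p = 0.0552). Sycp3 shares 660 exonic bases with Chpt1 on the opposite strand in GENCODE M21, and Chpt1 was at 65.2 ± 5.98 CPM in Ino80cKO and 67.0 ± 5.93 CPM in Ino80WT (log2 -0.04 ± 0.08, adjusted p = 0.722).

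The transverse filament gene also fell. Sycp1 (chromosome 3, 102818499 to 102936100, minus strand) was at 678, 687, 771, 828 and 895 CPM in Ino80cKO libraries 1 to 5, against 1160, 782, 1157, 1005 and 1439 CPM in Ino80WT. Ino80WT library 2 was again within the range of Ino80cKO, and Ino80WT library 5 was highest. Sycp1 averaged 772 ± 92.6 CPM in Ino80cKO and 1109 ± 241 CPM in Ino80WT, and its log2 fold change was -0.52 ± 0.14 (1.44-fold lower, adjusted p = 0.0106). A pseudogene copy, Sycp1-ps1 on chromosome 7, had at most 13 counts in any Ino80cKO library and 38 in any Ino80WT library, where Sycp1 itself had at least 15588 counts in Ino80cKO and 15521 in Ino80WT.

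Of the 4 central element genes, 3 fell and Syce2 did not pass. Syce1 (chromosome 7, 140777229 to 140787852, minus strand), a coiled-coil protein that joins the central element to SYCP1 through SYCE3, had the lowest fold change of the 7. It was at 100.2, 94.4, 82.1, 107 and 116 CPM in Ino80cKO libraries 1 to 5, against 216, 193, 262, 175 and 224 CPM in Ino80WT. The highest Ino80cKO library was well below the lowest Ino80WT library, and the log2 fold change was -1.10 ± 0.12 (2.15-fold lower, adjusted p = 5.37e-05). Syce3 (chromosome 15, 89390174 to 89410503, minus strand), a small protein that binds SYCP1, was at 17.0, 15.1, 14.9, 16.4 and 17.8 CPM in Ino80cKO, against 39.6, 29.0, 31.6, 29.0 and 30.8 CPM in Ino80WT. Its groups were also far apart, with Ino80WT library 1 above the rest, and its log2 fold change was -0.98 ± 0.10 (1.97-fold lower, adjusted p = 5.08e-05).

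Tex12 and Syce2, whose products assemble together, had the smaller fold changes of this layer. Tex12 (chromosome 9, 50556819 to 50561325, minus strand) was at 42.5, 36.9, 39.97, 42.1 and 39.7 CPM in Ino80cKO libraries 1 to 5, against 67.3, 54.1, 55.5, 52.7 and 69.4 CPM in Ino80WT. The Tex12 groups did not overlap, and its log2 fold change was -0.57 ± 0.09 (1.48-fold lower, adjusted p = 0.000401). Syce2 (chromosome 8, 84872111 to 84888221, plus strand) was at 72.2, 65.5, 65.1, 71.96 and 74.2 CPM in Ino80cKO, against 96.9, 68.7, 74.9, 78.5 and 77.3 CPM in Ino80WT. Ino80WT library 2 lay within the Ino80cKO range, libraries 3 to 5 just above it and library 1 well above it. The log2 fold change of Syce2 was -0.18 ± 0.09 (adjusted p = 0.114), and the fold had a 95% interval from 0.769 to 1.01. Without Ino80WT library 1 it was -0.08 (adjusted p = 0.355). Tex12 overlaps Il18, and Syce2 overlaps Gcdh, on the opposite strand, in both cases with no exonic base shared between coding transcripts.

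Taken as means over each layer's genes, the contrast between the 3 layers was small beside the spread of libraries. The mean log2 CPM of the 4 central element genes minus that of Sycp2 and Sycp3, a contrast within each library that no scaling can move, averaged -3.44 ± 0.10 in Ino80cKO and -3.31 ± 0.25 in Ino80WT, a difference of -0.13. Its ranges overlapped, from -3.56 to -3.31 in Ino80cKO and from -3.58 to -2.98 in Ino80WT. The difference was 0.04 without Ino80WT libraries 1 and 2, where Rn45s took 7.08% and 4.67% of gene counts, the largest shares of the 10. It was -0.275 with Sycp3 alone for the lateral element and -0.53 with Syce1 alone for the central element. Sycp1 minus the same lateral mean averaged 0.62 ± 0.09 in Ino80cKO and 0.55 ± 0.15 in Ino80WT, also with overlapping ranges, and the difference of 0.07 turned to -0.08 with Sycp3 alone for the lateral element. These scores were not tested, since they are sums over genes chosen for the list.

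Some single pairs of members were apart between the groups. Of the 21 pairs of the 7 genes, the log2 ratio within a library did not overlap between groups in 7. The share among pairs of all genes was not computed, so this count is not shown to be particular to the complex. Of the 7 pairs, 5 involve Syce2 or Syce1 against another central element gene or Sycp1. The other 2 are Sycp3 over Syce1 and Sycp3 over Syce3. The tightest was Syce2 over Syce3, at 2.05 to 2.13 in Ino80cKO and 1.24 to 1.43 in Ino80WT, a difference of 0.79. Syce1 over Syce2 was at 0.33 to 0.64 in Ino80cKO and 1.16 to 1.81 in Ino80WT, a difference of -0.92. Syce2 over Tex12, the pair whose products assemble together, was at 0.70 to 0.90 in Ino80cKO and 0.16 to 0.57 in Ino80WT, a difference of 0.39. In contrast, Sycp1 over Sycp3 overlapped, at 0.84 to 1.22 in Ino80cKO and 1.01 to 1.27 in Ino80WT, and Syce1 over Syce3 did too, at 2.45 to 2.70 in Ino80cKO and 2.45 to 3.05 in Ino80WT. These ratios do not depend on how libraries are scaled and are given without a test.

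**Figure D2:**
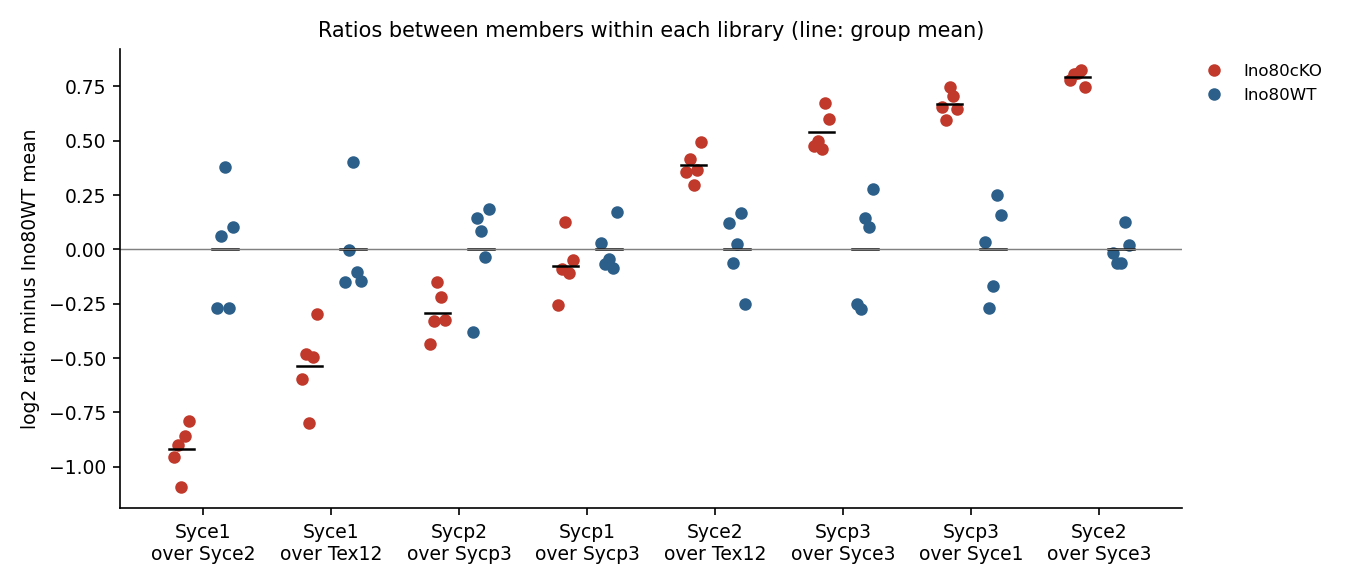
Log2 ratio between 2 members within each library, minus the Ino80WT mean of that ratio (vertical axis), for 8 of the 21 pairs, with points for libraries and a line for each group mean. Ratios of Syce2 to Syce3 and of Sycp3 to Syce1 are higher in every Ino80cKO library, that of Syce1 to Syce2 is lower in every one, and that of Sycp1 to Sycp3 overlaps. Most pairs shown do not overlap between the groups, whereas 14 of all 21 pairs do.

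Per length, lateral element and filament transcripts made up most of the set in both groups. CPM were divided by the length in kilobases of the longest coding transcript in GENCODE M21, which need not be the annotation used for counting. On this scale levels were highest for Sycp3 (326 ± 38.8 in Ino80cKO and 440.4 ± 69.7 in Ino80WT), then Sycp1 (225 ± 26.9 in Ino80cKO and 323 ± 70.1 in Ino80WT), Sycp2 (116 ± 14.6 in Ino80cKO and 193 ± 42.9 in Ino80WT) and Syce1 (68.3 ± 8.65 in Ino80cKO and 147 ± 22.6 in Ino80WT). Syce2, Syce3 and Tex12 lay between 33.8 and 41.4 in Ino80cKO and between 47.0 and 66.7 in Ino80WT, and their order differed between the groups. Syce3 was the highest of these 3 in Ino80WT (66.7 ± 9.17, against 59.6 ± 7.86 for Tex12, a gap within the SD) and the lowest in Ino80cKO (33.8 ± 2.59). Of the summed level of the 7 genes, the lateral pair took 51.9 ± 1.13% in Ino80cKO and 49.6 ± 1.93% in Ino80WT, Sycp1 26.4 ± 1.61% in Ino80cKO and 25.1 ± 1.84% in Ino80WT, and the central element 21.7 ± 1.10% in Ino80cKO and 25.3 ± 2.72% in Ino80WT. All 3 shares overlapped between the groups. Within the central element, the share of Syce1 was 8.03 ± 0.53% in Ino80cKO and 11.6 ± 1.49% in Ino80WT, and that of Syce2 was 4.89 ± 0.29% in Ino80cKO and 3.73 ± 0.59% in Ino80WT.

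Members varied together to unequal degrees among libraries of one group. After each group mean was removed, log2 CPM over the 10 libraries correlated with Pearson r = 0.88 between Sycp1 and Sycp3, 0.92 between Syce2 and Syce3, and 0.76 between Sycp1 and Sycp2, while Sycp2 had r = -0.10 with Syce2 and -0.12 with Syce3. These are descriptions, and the libraries share their depth and scaling between genes. Ino80cKO library 5 was the highest of its group for 5 members (Sycp1, Sycp3, Syce1, Syce2 and Syce3), and Ino80WT library 5 for 4 (Sycp1, Sycp2, Sycp3 and Tex12). Among 10322 other genes of average log2 CPM of at least 3 with a non-provisional symbol, those closest to Sycp3 by the same measure were Dazl (r = 0.94), Iqcb1 (0.93) and Glmn (0.91). Those closest to Sycp1 were Smarca5 (0.96), Cops2 (0.92) and Ccdc41 (0.92), and those closest to Syce1 were Tmem120a (0.99), Cep89 (0.98) and Fnta (0.98). Each is among the highest of 10322 values over only 10 libraries. How high such a maximum runs among unrelated genes was not computed, so no gene is shown to be a partner.

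Of 6 other genes of the structure and its assembly, 2 were lower, none higher and 4 did not pass, with a median log2 fold change of -0.06, so the share lower was near the 27.6% of all genes. The remaining central element gene, 4930447C04Rik (Six6os1), was at 122 ± 8.09 CPM in Ino80cKO and 124 ± 16.3 CPM in Ino80WT, a log2 fold change of -0.02 ± 0.09 (adjusted p = 0.888). Ccdc79 (Terb1), which tethers telomeres to the nuclear envelope, fell by 0.64 on the log2 scale (adjusted p = 0.0011), and 4930432K21Rik fell by 0.46 (adjusted p = 0.0172). Trip13, the ATPase that removes HORMAD proteins from synapsed axes, had 0.04 (adjusted p = 0.701), Fkbp6, a co-chaperone needed for synapsis in mouse, -0.10 (adjusted p = 0.363), and Fbxo47 0.14 (adjusted p = 0.347).

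Of 9 genes of the chromosome axis on which the complex is built, 5 were lower, 1 higher and 3 did not pass, with a median of -0.19, where 27.6% of all genes were lower and 18.3% higher. Hormad2 and Hormad1, axis proteins that monitor synapsis, fell by 0.65 (adjusted p = 0.000142) and 0.59 (adjusted p = 0.00103) on the log2 scale. The meiotic cohesin subunits Stag3 and Smc1b fell by 0.61 (adjusted p = 0.002) and 0.45 (adjusted p = 0.0245), and Ccdc36 (Iho1), which ties break formation to unsynapsed axes, by 0.19 (adjusted p = 0.046). The meiotic kleisins Rec8 (0.02, adjusted p = 0.933) and Rad21l (0.09, adjusted p = 0.499) and the general subunit Smc3 (0.19, adjusted p = 0.0793) did not pass. Smc1a, the general counterpart of Smc1b, was higher at 89.6 ± 6.72 CPM in Ino80cKO, against 67.4 ± 7.14 CPM in Ino80WT (log2 0.41 ± 0.09, adjusted p = 0.00227).

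Most of the crossover factors measured were lower. Of 8 measured, 6 were lower, none higher and 2 did not pass, with a median of -0.81, against 27.6% of all genes lower, and 3 more of the list were not analysed here. Cntd1, a crossover regulator, was at 108 ± 13.6 CPM in Ino80cKO and 272 ± 25.5 CPM in Ino80WT (log2 -1.33 ± 0.10, adjusted p = 2.99e-05). The MutL homologue Mlh3 fell by 0.99 (adjusted p = 7.1e-05), Ccnb1ip1 (known as HEI10) by 0.85 (adjusted p = 0.000139), Prr19, a partner of CNTD1, by 0.85 (adjusted p = 0.00145), the MutS homologue Msh4 by 0.77 (adjusted p = 9.21e-05) and the helicase Hfm1 by 0.62 (adjusted p = 0.00167), each on the log2 scale. Msh5, the partner of MSH4, had -0.19 (adjusted p = 0.211), and Tex11, an X-linked gene, -0.02 (adjusted p = 0.87).

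**Figure D3:**
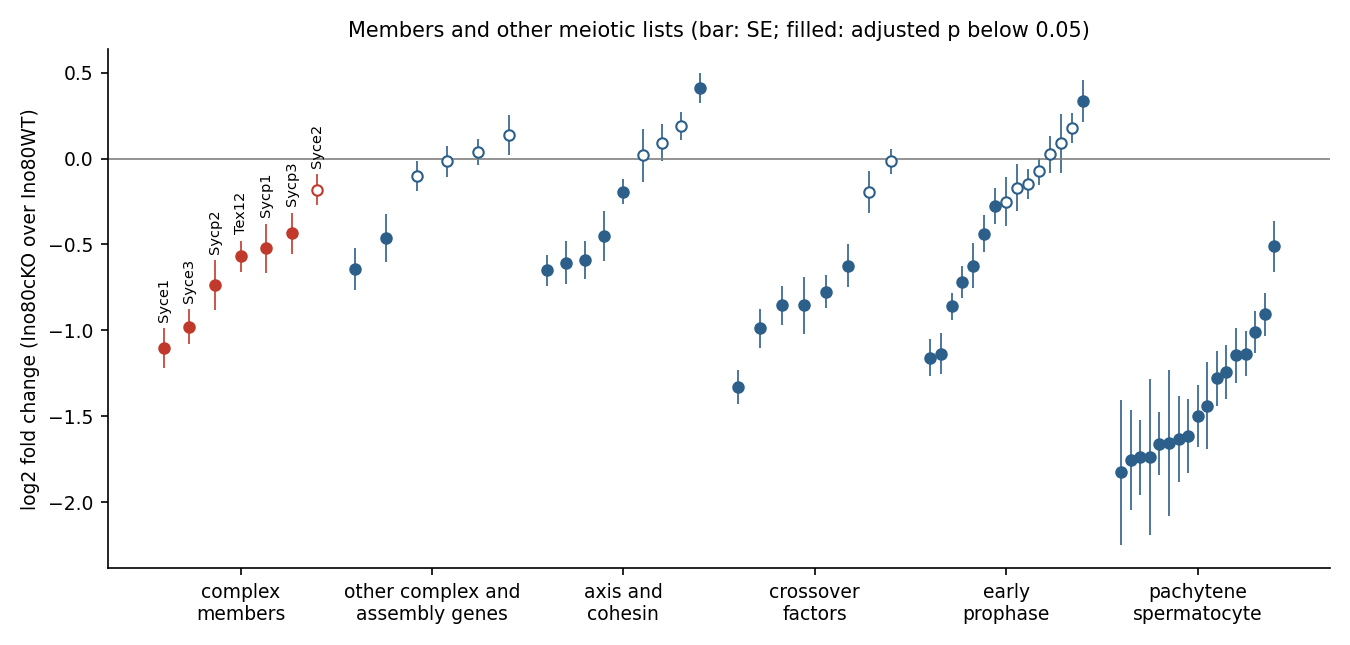
Log2 fold change, Ino80cKO over Ino80WT (vertical axis), of each tested gene in the synaptonemal complex set (red, named) and in 5 other meiotic lists (blue), with SE bars and filled points at adjusted p below 0.05. The complex members run from -1.10 for Syce1 to -0.18 for Syce2 with TMM scaling (above zero, like most genes, when scaled to the pachytene list), while all 17 pachytene genes are filled and lower. The lists were chosen with earlier results of these data known.

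Markers of meiotic stage and of other cells were read against the same shares of all genes, 27.6% lower and 18.3% higher. These lists were chosen with earlier results of these data known, so their counts are descriptions and not independent readings of stage or cell type. Early prophase genes had 7 of 15 lower, 1 higher, Stra8 (0.34), and 7 that did not pass, with a median of -0.25. Mcmdc2 (-0.86), Psmc3ip (-1.16), a partner of the strand-exchange proteins, and Spo11 (-1.14), which cuts the DNA breaks that start recombination, had the smallest adjusted p, and the list's summed level ran from 960.4 to 1124 CPM in Ino80cKO and from 1225 to 1608 CPM in Ino80WT. Pachytene genes had 17 of 17 lower, with a median of -1.50 and a summed level of 1574 to 2751 CPM in Ino80cKO and 4380 to 7577 CPM in Ino80WT. Cetn1 (-1.66), the transcription factor Tcfl5 (-1.14) and the bromodomain gene Brdt (-1.01) had the smallest adjusted p. General germ cell genes had 6 of 8 lower, led by Ddx4 (-0.92), Mael (-1.10) and Rbm44 (-0.92), and summed to 2114 to 2772 CPM in Ino80cKO and 3612 to 4647 CPM in Ino80WT. Spermatogonial genes were called no more often than genes at large, with 3 of 14 lower (Id4 at -1.03, Dmrtb1 at -1.29 and Sohlh2 at -0.29) and 2 higher (Uchl1 at 0.30 and Etv5 at 0.48). Their median was 0.11, and they summed to 801 to 966 CPM in Ino80cKO and 792 to 1027 CPM in Ino80WT.

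Markers of somatic cells were present in all libraries although the labels name spermatogenic cells. Against 18.3% of all genes called higher, Sertoli markers had 4 of 12 higher and none lower, led by Gata4 (0.61), Sox9 (0.46) and Clu (0.40), and summed to 5333 to 7462 CPM in Ino80cKO and 3717 to 5924 CPM in Ino80WT. Leydig markers had 5 of 7 tested higher (Lhcgr at 1.11, Hsd3b6 at 0.93 and Nr5a1 at 0.44 first) and summed to 149 to 249 CPM in Ino80cKO and 91.5 to 160 CPM in Ino80WT. Peritubular and endothelial markers had 1 of 9 higher, Myh11 (0.32), a share below that of all genes, and summed to 750.5 to 1111 CPM in Ino80cKO and 671 to 843 CPM in Ino80WT. Macrophage and leukocyte markers had 6 of 10 higher (Csf1r at 0.79, C1qb at 1.03 and C1qa at 0.84 first) and summed to 80.5 to 124 CPM in Ino80cKO and 59.3 to 83.4 CPM in Ino80WT. No marker of these lists was at 0 in every library. Their part in the lower level of the synaptonemal complex genes was not tested.

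Scaling libraries to a germ cell list moves every gene by nearly the same amount, so the sign of each member on such a scale follows from the list chosen, and its calls are read against those of all genes. Scaled by the summed counts of the early prophase list, which put the median of all genes at 0.41 (log2), Syce1 (-0.71, adjusted p = 9.35e-05), Syce3 (-0.60, adjusted p = 0.00151) and Sycp2 (-0.33, adjusted p = 0.0139) still passed as lower, as did 11.1% of all genes. The other 4 did not pass on that scale, at -0.18 for Tex12, -0.12 for Sycp1, -0.04 for Sycp3 and 0.20 for Syce2, where 52.5% of all genes were higher. Scaled by the general germ cell list, which put the median of all genes at 0.73, Syce1 alone was lower (-0.38), as were 6.70% of all genes. Sycp3 (0.28, adjusted p = 0.0216) and Syce2 (0.53, adjusted p = 0.000973) were higher on that scale, as were 77.7% of all genes. Scaled by the pachytene list, which put the median of all genes at 1.37, none of the 7 was lower, against 0.301% of all genes, and 5 were higher, against 90.7%. Syce1 (0.25, adjusted p = 0.143) and Syce3 (0.36, adjusted p = 0.111) did not pass on it.

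**Figure D4:**
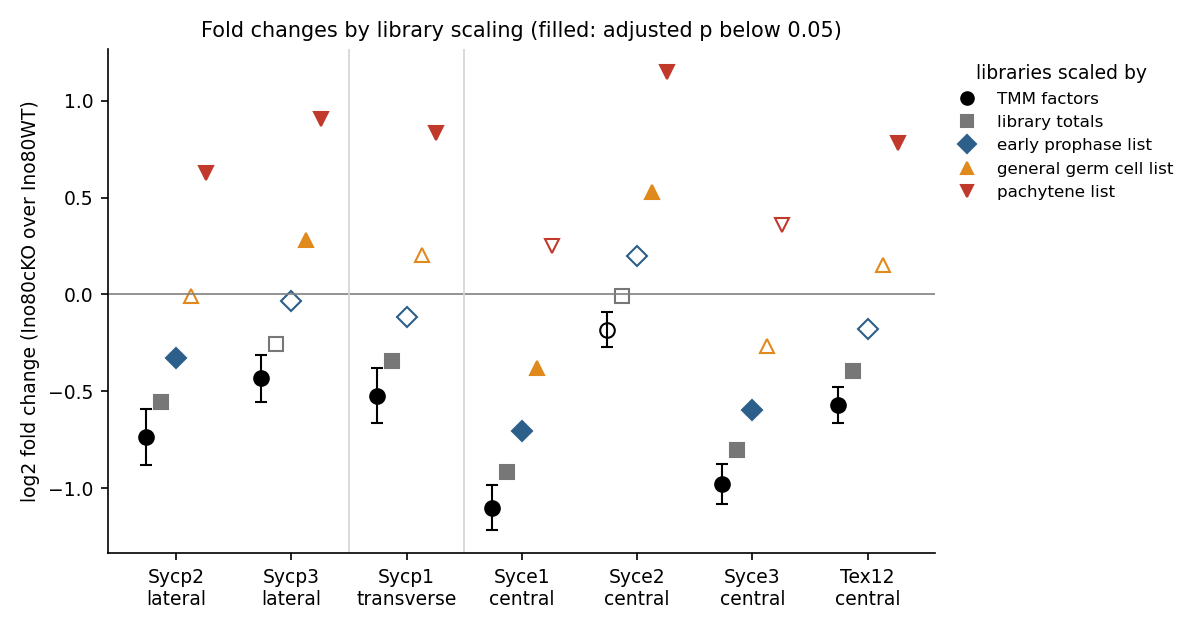
Log2 fold change of the 7 members, Ino80cKO over Ino80WT (vertical axis), with libraries scaled by TMM factors (black, SE bars), library totals or the summed counts of 3 germ cell lists, and filled points at adjusted p below 0.05. The 7 genes lie below zero with TMM factors and above it with the pachytene list, on which the median of all genes is 1.37, and the shift between scales is nearly the same for each gene by construction.

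Within the set, members with neither motif before any start had the lowest fold changes. Over all genes, the shares called lower were close with and without each motif. The 3 members with neither motif before any start had log2 fold changes of -1.10 (Syce1), -0.98 (Syce3) and -0.74 (Sycp2), and Tex12 (-0.57), Sycp1 (-0.52) and Sycp3 (-0.43), with an E-box, had higher ones. Syce2 (-0.18), the highest of the 7, holds neither motif before its first start and both only before its second, inside the part transcribed from the first. These values were compared after they were known and are given without a test. Among 11202 tested genes matched to a promoter by symbol, 26.9% of the 1078 with an E-box and 28.0% of the 10124 without one were called lower, with medians of 0.02 and 0.01. For the E2F site the shares were 28.5% of 895 genes with it and 27.9% of 10307 without, and for both motifs together 26.0% of 96 genes.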

How the data were processed

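Each library has a deposited table of raw, unnormalized whole-number counts of reads on genes, and 5 rows in it that name no gene (35.5% to 44.0% of reads) were left out. PolyA libraries were made with a stranded kit, per the labels' protocols. TopHat2, HTSeq, DESeq2 and mm10 are named, without versions, per the submitters' processing notes. The sources used here give neither annotation nor strand setting for counting, so reads of overlapping antisense genes may not be told apart. The main test was edgeR 4.0.16 (R 4.3.3), with filterByExpr on genotype (minimum count 10, minimum total 15), TMM factors, robust glmQLFit and glmQLFTest with genotype as the only term, adjusted over 15265 genes. The SE is the log2 fold change divided by the root of F. Log2 CPM used a prior count of 2. On simulated counts (15180 genes), 90% of 100 genes changed by 1 on the log2 scale and 41% of 100 changed by 0.5 were called, none in the wrong direction, and 2.24% of calls were of unchanged genes. Only 200 genes were changed there, as many up as down, while 45.9% of genes were called in the data. The simulation therefore does not cover errors from the choice of scaling. No library was a duplicate (lowest chi-square per degree of freedom 8.93). Listed genes were matched by current or older symbol, 123 of 129, and 1 further crossover gene is not reported here. Members and lists were chosen with earlier results of these data known. Named genes were the members, Ino80, all found members of the 3 lists nearest the complex, up to 3 of each other list by smallest adjusted p, and the 3 most alike for Sycp1, Sycp3 and Syce1. Genes called higher were also named for the early prophase and spermatogonial lists. Alternatives were DESeq2 1.42.0, limma-voom (limma 3.58.1), other filters, scalings and left-out libraries, and a block for replicate number.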

Additional observations from a re-analysis of the deposited data

Results flagged for a closer look

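Of 46 groups of 5 libraries examined (the CPM of 7 members, 2 contrasts between elements and 14 summed lists, in each group), 2 held a library far from the other 4, where chance alone gives about 1 in 20. Syce3 was at 39.6 CPM in Ino80WT library 1, with the next of that group at 31.6 CPM, a gap of 0.75 of the group's range, and both lie above all Ino80cKO libraries. The summed Leydig markers were at 91.5 CPM in Ino80WT library 3, with the next of that group at 145 CPM, a gap of 0.77 of the range.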

How the results depend on the processing

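The count of 6 synaptonemal complex members lower and 0 higher was the same under DESeq2, limma-voom, both other filters, without Rn45s, without Ino80WT 1 and 2, and with each library left out in turn (6 and 6 as lowest and highest for lower, 0 and 0 for higher, -0.63 to -0.50 for the median). Without library 3 of each group, chosen after seeing the data, 5 were lower, as Sycp3 no longer passed, and 3357 of all genes were lower. With the replicate block it was also 6 lower and 0 higher, with a median of -0.56, and 3572 genes lower and 1921 higher. The number alone is shared: same-numbered libraries had correlations of deviations from -0.47 to 0.20, and 2 of 10 libraries correlated best with their own number. Library totals, which put the median of all genes at 0.19, gave 5 members lower and a member median of -0.39. Over all genes they gave 2937 lower, against 4220 with TMM factors, and 5484 higher, against 2793. The early prophase scaling gave 3 members lower, a median of -0.18, 1696 genes lower and 8019 higher, with Syce2 at 0.20. The next scalings were chosen after seeing the data. The general germ cell list gave 1 member lower and 2 higher, a median of 0.15, 1023 genes lower and 11862 higher, with Sycp1 at 0.20, Sycp3 at 0.28, Syce2 at 0.53 and Tex12 at 0.15. The pachytene list gave 0 lower and 5 higher, a median of 0.78, 46 genes lower and 13841 higher, with Sycp1 at 0.83, Sycp2 at 0.63, Sycp3 at 0.90, Syce1 at 0.25, Syce2 at 1.15, Syce3 at 0.36 and Tex12 at 0.78. By construction each of these scalings sets the summed counts of its own list to no change, though not each gene in the list. All genes lower ran from 3610 to 4275, and higher from 2135 to 3284, with 1 library left out. The central minus lateral contrast was 0.043 without Ino80WT 1 and 2, -0.275 with Sycp3 alone, -0.53 with Syce1 alone and -0.20 to -0.05 with 1 library left out. The transverse minus lateral contrast was -0.076 with Sycp3 alone and 0.03 to 0.13 with 1 library left out. The cause was not tested for these 2 contrasts.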
